A study of Mus musculus with 15 samples.

Results

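The circadian clock genes described here are 10 genes of the core loop and its direct outputs, Arntl (also called Bmal1), Npas2, Per1, Per2, Per3, Cry1, Nr1d1, Nr1d2, Dbp and Ciart. They were chosen by name among the 43629 genes listed for each library, with earlier results of these data known. All 10 were among the 15864 genes that passed the filter on low counts. Their transcripts were measured by RNA-seq in whole brains of 15 wild-type male C57BL/6J mice, one library per mouse. Of these, 4 young mice were fed ad libitum (AL, food always present), 3 young mice were fed every other day (EOD, called intermittent fasted in the labels), 4 old mice were AL and 4 old mice were EOD. By the labels the young mice were 3 months and the old mice 24 months of age. The study puts the old mice at a lower age when its analyses began. EOD feeding started at 2 months of age, so that young EOD mice had been on the diet for a short time and old EOD mice for most of their lives. Food was given to and taken from EOD mice in the morning. By the general rule of the study, measurements began on the morning that followed a day with food, unless another time was named. No hour or feeding state is named for the removal of the brains itself, and whether the rule held for it is not given in the sources used here. With 1 collection per mouse, the values below are levels and not rhythms.

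The circadian clock is a feedback loop of transcription that runs in most cells. ARNTL pairs with CLOCK or its relative NPAS2 and switches on genes that carry an E-box, among them the Per and Cry genes, whose proteins return to the nucleus and block ARNTL, and Nr1d1 and Nr1d2, whose proteins (REV-ERB alpha and beta) repress Arntl through elements called ROREs. DBP and its relatives act on D-boxes, and CIART represses the ARNTL complex. In the brain the suprachiasmatic nucleus is set by light, whereas clocks elsewhere can also be shifted by the time of food.

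Total counts ranged from 5198748 to 13610729 per mouse. The young AL mouse 3 stood apart from the rest, with 17280 genes detected against 19054 to 20880 in the other 14 mice. Results were therefore also computed without it. Each member was covered by 32 to 1928 counts per mouse. The old AL mouse 4 carried pituitary transcripts, with growth hormone (Gh) at 888 CPM against 14.9 CPM or less in the other mice (CPM are counts of a gene set to a common library size). Of 5 pineal markers, Asmt and Gngt1 were at 0 in all 15 mice, and Crx was at most 0.084, Aanat 0.378 and Tph1 0.688 CPM. The summed level of 6 markers of the suprachiasmatic nucleus ranged from 45.5 to 63.1 CPM in young AL, from 46.8 to 59.7 in young EOD, from 40.8 to 66.2 in old AL and from 44.4 to 63.1 in old EOD mice, so that the groups overlapped. The sum was mostly Vip, which made up 82.2% to 97.2% of it in each mouse. The other 5 markers together ranged from 1.51 to 6.94, from 3.08 to 6.96, from 1.84 to 8.46 and from 2.43 to 7.41 CPM in the same order. In RNA from a whole organ, fewer cells of a type and less RNA per cell cannot be told apart.

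The proximal promoters were read from RefSeq (build GRCm38.p6), as the 250 bases before the annotated start. An entry was found for 9 of the 10 members, with 2 starts each for Arntl and Per1. The windows were searched on both strands for the E-box CACGTG, the variant E-box CACGTT, the D-box TTATGTAA, the ROREs TAGGTCA and TGGGTCA and the cyclic AMP response element TGACGTCA, none of which overlapped another in these windows. An E-box was found in 3 members (Ciart, Cry1 and Per1), against 6.02% of all 32851 promoters searched. The variant E-box was found in 2 members (Cry1 and Nr1d1), against 3.85% of all promoters. A D-box was found in 1 member (Per3), against 0.819%. No match to the RORE letters was found in a member, against 5.38% of promoters, and none to the cyclic AMP response element, against 1.55%. The search took the exact letters of each motif and only the 250 bases before a start. An element with other letters, or one that reached past the start, would have been missed. A window without a match therefore does not show that the promoter lacks the element. The first 3 sequences below are shown because Cry1, Arntl and Nr1d2 are the members whose AL and EOD groups did not overlap in young mice, and the other two because they hold repeated motifs. They lie at chr10:85185055-85185304 on the minus strand (Cry1), chr7:113207215-113207464 on the plus strand (Arntl, the upstream start), chr14:18239107-18239356 on the minus strand (Nr1d2), chr3:95882229-95882478 on the minus strand (Ciart) and chr4:151044666-151044915 on the minus strand (Per3). Each is written 5′ to 3′ on the strand of its gene, and capitals mark a match to a motif on either strand.
Cry1: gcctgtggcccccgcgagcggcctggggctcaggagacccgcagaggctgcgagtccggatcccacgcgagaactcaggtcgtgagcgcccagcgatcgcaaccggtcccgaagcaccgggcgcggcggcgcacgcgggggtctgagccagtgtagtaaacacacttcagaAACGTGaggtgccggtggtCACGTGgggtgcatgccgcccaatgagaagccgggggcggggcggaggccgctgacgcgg
Arntl: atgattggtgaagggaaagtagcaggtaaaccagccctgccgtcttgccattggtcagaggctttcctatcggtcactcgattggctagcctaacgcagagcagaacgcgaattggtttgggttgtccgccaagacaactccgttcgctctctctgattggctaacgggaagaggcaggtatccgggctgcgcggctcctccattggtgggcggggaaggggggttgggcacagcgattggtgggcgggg
Nr1d2: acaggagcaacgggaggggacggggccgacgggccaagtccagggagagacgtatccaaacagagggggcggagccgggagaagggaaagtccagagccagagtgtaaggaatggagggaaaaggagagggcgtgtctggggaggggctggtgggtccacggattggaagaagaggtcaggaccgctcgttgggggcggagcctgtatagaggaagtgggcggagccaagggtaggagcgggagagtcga
Ciart: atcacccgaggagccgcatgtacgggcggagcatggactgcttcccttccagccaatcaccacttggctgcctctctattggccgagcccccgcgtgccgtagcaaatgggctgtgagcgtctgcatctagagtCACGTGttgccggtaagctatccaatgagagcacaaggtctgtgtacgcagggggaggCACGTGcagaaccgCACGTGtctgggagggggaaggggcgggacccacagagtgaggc
Per3: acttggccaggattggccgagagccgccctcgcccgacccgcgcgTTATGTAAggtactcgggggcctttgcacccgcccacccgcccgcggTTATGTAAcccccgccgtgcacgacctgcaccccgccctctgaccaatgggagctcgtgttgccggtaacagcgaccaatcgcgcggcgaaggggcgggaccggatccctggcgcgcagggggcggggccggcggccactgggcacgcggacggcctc
The Cry1 window held the variant E-box, read on the opposite strand as AACGTG and starting 79 bases before the start, and the E-box, starting 60 bases before it. Ciart held 3 E-boxes, 116, 58 and 44 bases before the start. Per3 held 2 D-boxes, 205 and 158 bases before the start. The Arntl and Nr1d2 windows held none of the letters searched. A match is a run of letters and was not linked to binding in these mice.

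Levels can be set against each other between genes only per length of transcript. In RPKM (CPM per kilobase of exon, mean ± SD over 15 mice), the REV-ERB genes were highest, with 32.0 ± 3.38 for Nr1d2 and 29.1 ± 5.52 for Nr1d1. Dbp (12.4 ± 2.15) and Arntl (12.1 ± 1.65) followed, then Per1 (9.06 ± 1.85), Cry1 (8.78 ± 1.73) and Npas2 (6.94 ± 1.03). Per2 (5.56 ± 1.10), Ciart (3.69 ± 0.925) and Per3 (3.02 ± 0.420) were lowest. Nr1d2 and Nr1d1, Dbp and Arntl, and Per1 and Cry1 are neighbours whose levels lay within 1 SD of each other.

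**Figure D1:**
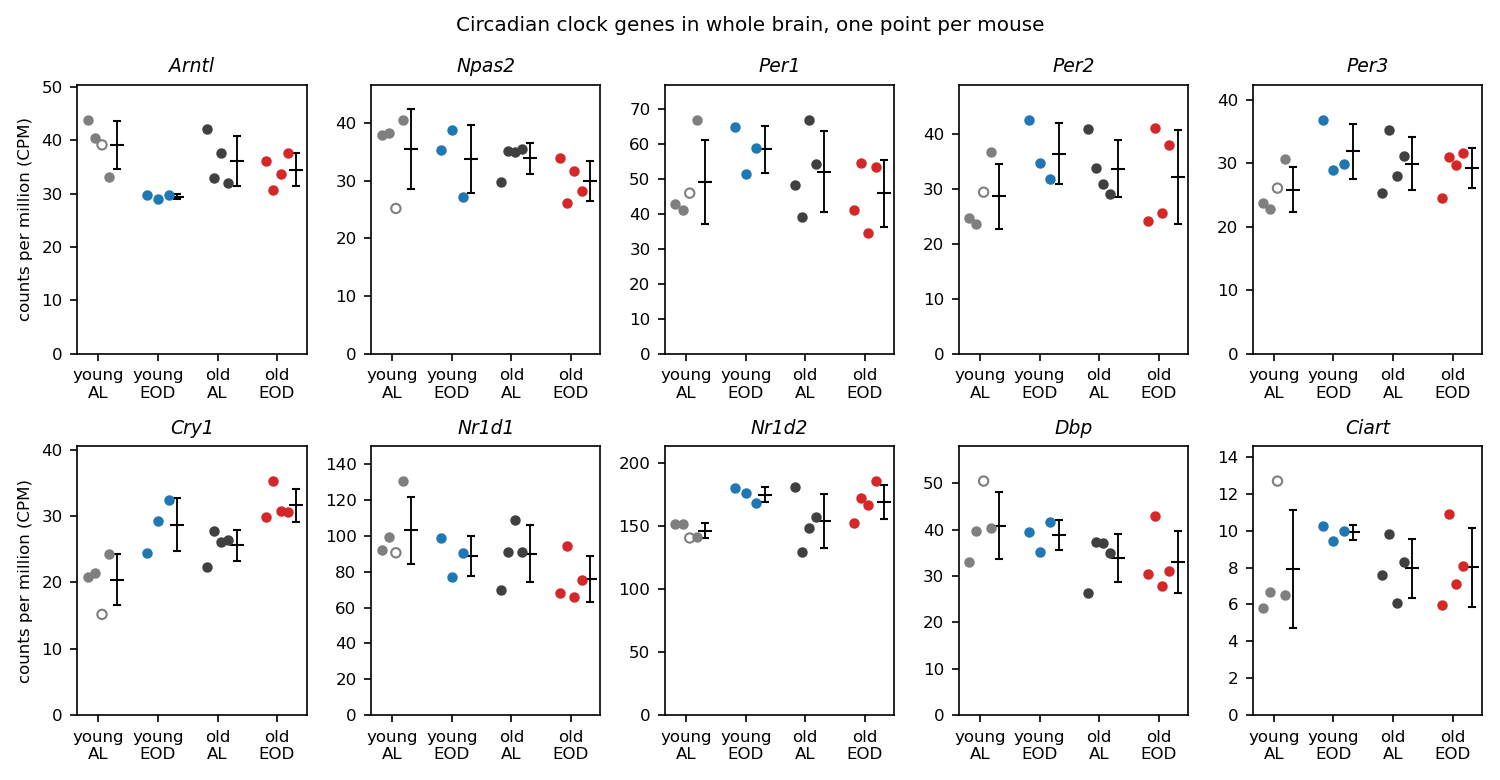
CPM of each clock gene on the vertical axis, from 0, by group of mice; each point is a mouse (open circle, young AL mouse 3) and the bar at the right of each group is the mean ± SD. Cry1 lay higher in every EOD mouse than in every AL mouse of the same age, and Arntl lay lower in the 3 young EOD mice than in the 4 young AL mice.

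No clock gene passed a false discovery rate (FDR) of 0.1 for diet in edgeR's quasi-likelihood test, adjusted over all 15864 genes. The count was 0 of 10 averaged over ages, in young mice and in old mice, where 0% of all genes tested were called in each of the 3 comparisons. At an unadjusted p under 0.05 there were 4 of 10 averaged over ages (Arntl and Nr1d1 lower and Cry1 and Nr1d2 higher in EOD mice), against 4.51% of all genes. In young mice there were 4 of 10 (Arntl lower, Per3, Cry1 and Nr1d2 higher), against 4.14% of all genes. In old mice there was 1 of 10 (Cry1), against 2.58% of all genes. Because the members were chosen with earlier results of these data known, the shares here and below describe them and do not test them as a set. DESeq2 gave the same numbers, 0 at FDR 0.1 and 4, 4 and 1 at the unadjusted p, against 728, 658 and 425 of its 26260 genes. Without young AL mouse 3 the numbers at the unadjusted p were 6, 5 and 1, against 6.04%, 4.01% and 4.02% of all genes. At FDR 0.1 they were 0. With any 1 mouse left out the numbers at the unadjusted p ran from 3 to 6 averaged over ages, from 3 to 6 in young mice and from 1 to 2 in old mice. Over all genes they ran from 511 to 1016, from 427 to 1022 and from 250 to 673, of 15687 to 16194 genes tested.

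Cry1, which encodes a repressor of the ARNTL complex, was the member with the smallest p for diet and ranked 3 among the 15864 genes averaged over ages. Its level was 20.9, 21.4, 15.2 and 24.4 CPM in young AL mice and 24.4, 29.2 and 32.5 CPM in young EOD mice. In old mice it was 22.3, 27.7, 26.1 and 26.4 CPM under AL and 29.8, 35.3, 30.8 and 30.6 CPM under EOD feeding. The lowest EOD mouse therefore lay above the highest AL mouse at both ages, though narrowly in young mice (24.44 against 24.35 CPM). Groups that did not overlap at either age, in the same direction, were found for 1 of 10 members, Cry1, and for 21 genes or 0.132% of all genes tested. The log2 fold change of EOD against AL was 0.40 averaged over ages (SE 0.10, 95% interval 0.20 to 0.59), or 1.32-fold, with FDR = 0.983 in edgeR. It was 0.49 in young mice (SE 0.14, edgeR FDR = 0.996) and 0.30 in old mice (SE 0.13, edgeR FDR = 0.9999). Without young AL mouse 3, which had the lowest Cry1 level of all 15 mice, the averaged value was 0.33 (SE 0.08, edgeR FDR = 0.764). Within sequencing lanes, the difference was 0.21 to 1.01 on the log2 scale in the 5 combinations of age and lane that held both diets. Its direction was fixed by the groups not overlapping and adds no support. Each side held 1 or 2 mice, and the value of 1.01 set 2 young EOD mice against young AL mouse 3 alone. Cry1 passed FDR 0.1 (0.0196) in 1 alternative, in which no filter on low counts was used, and 65 genes passed in that fit.

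Arntl, the activator of the loop, was lower in EOD than in AL mice in the young groups. It was at 43.9, 40.4, 39.1 and 33.1 CPM in young AL mice and at 29.7, 28.9 and 29.7 CPM in young EOD mice. The young EOD mice lay within 1 CPM of each other and below all 4 AL mice. In old mice it was at 42.0, 32.9, 37.6 and 31.9 CPM under AL and at 36.2, 30.6, 33.6 and 37.5 CPM under EOD feeding, and the groups overlapped. The log2 fold change was −0.41 in young mice (SE 0.12, 95% interval −0.65 to −0.16, edgeR FDR = 0.996) and −0.06 in old mice (SE 0.11, edgeR FDR = 0.9999). It was −0.23 averaged over ages (SE 0.08, edgeR FDR = 0.983). The difference of the 2 values, tested as the interaction of age and diet, was 0.35 (SE 0.16, edgeR FDR = 0.9998). Npas2, whose protein can take the place of CLOCK as the partner of ARNTL, ranged from 25.2 to 40.6 CPM in young AL, from 27.2 to 38.7 in young EOD, from 29.8 to 35.6 in old AL and from 26.1 to 34.0 in old EOD mice, and the groups overlapped at both ages. Its log2 fold change averaged over ages was −0.12 (95% interval −0.34 to 0.09, edgeR FDR = 0.983) with all mice and −0.19 (edgeR FDR = 0.814) without young AL mouse 3, which had the lowest Npas2 level.

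The 3 Per genes encode the partners of the CRY proteins in repression. Per3 was at 23.7, 22.8, 26.1 and 30.7 CPM in young AL mice and at 36.9, 28.9 and 29.8 CPM in young EOD mice. A single AL mouse reached into the EOD range. In old mice it ranged from 25.4 to 35.2 CPM under AL and from 24.5 to 31.7 CPM under EOD feeding. The log2 fold change of Per3 was 0.31 in young mice (SE 0.13, 95% interval 0.03 to 0.59, edgeR FDR = 0.996) and −0.04 in old mice (edgeR FDR = 0.9999). Per1 ranged from 41.1 to 67.1 CPM in young AL, from 51.6 to 65.1 in young EOD, from 39.1 to 67.0 in old AL and from 34.6 to 54.5 in old EOD mice. Per2 ranged from 23.7 to 36.8 CPM in young AL, from 31.9 to 42.7 in young EOD, from 29.1 to 40.9 in old AL and from 24.2 to 41.2 in old EOD mice. All groups of Per1 and Per2 overlapped between diets. For both genes the value for diet was positive in young mice (0.25 and 0.35) and negative in old mice (−0.18 and −0.07), with intervals that included 0 at each age. The interaction gave −0.43 for Per1 (95% interval −0.95 to 0.08), −0.42 for Per2 (−0.94 to 0.10) and −0.35 for Per3 (−0.73 to 0.04), with an edgeR FDR of 0.9998 for each.

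Nr1d2 and Nr1d1 encode nuclear receptors that repress Arntl, and their values for diet had opposite signs. Nr1d2 was at 151, 151, 140 and 141 CPM in young AL mice and at 180, 176 and 169 CPM in young EOD mice. The groups did not overlap in young mice. In old mice it was at 181, 129, 149 and 157 CPM under AL and at 152, 172, 166 and 186 CPM under EOD feeding, and the groups overlapped. The log2 fold change was 0.26 in young mice (SE 0.09, 95% interval 0.07 to 0.45, edgeR FDR = 0.996), 0.13 in old mice (SE 0.08, edgeR FDR = 0.9999) and 0.20 averaged over ages (SE 0.06, edgeR FDR = 0.983). Nr1d1 was at 92.4, 99.3, 90.7 and 131 CPM in young AL mice and at 98.9, 77.2 and 90.4 CPM in young EOD mice. In old mice it was at 69.8, 91.2, 109 and 90.9 CPM under AL and at 68.3, 94.2, 65.7 and 75.6 CPM under EOD feeding. The groups of Nr1d1 overlapped at both ages. The log2 fold change of Nr1d1 was −0.23 averaged over ages (SE 0.10, 95% interval −0.44 to −0.02, edgeR FDR = 0.983). The counting took account of strand, which matters for Nr1d1 because its end lies over the end of Thra on the opposite strand.

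Dbp and Ciart are outputs of the E-box, a transcription factor of the D-box and a repressor. Dbp was at 33.0, 39.8, 50.5 and 40.2 CPM in young AL mice and at 39.4, 35.3 and 41.7 CPM in young EOD mice. In old mice it was at 26.2, 37.3, 37.1 and 34.9 CPM under AL and at 30.3, 42.9, 27.8 and 31.0 CPM under EOD feeding. The diet groups overlapped at both ages, and the log2 fold change averaged over ages was −0.06 (95% interval −0.28 to 0.16, edgeR FDR = 0.983). Ciart was at 5.78, 6.69, 12.7 and 6.53 CPM in young AL mice and at 10.3, 9.46 and 9.99 CPM in young EOD mice. It ranged from 6.05 to 9.84 CPM in old AL and from 5.95 to 10.9 CPM in old EOD mice. The value of Ciart in young mice turned on young AL mouse 3. With it the groups overlapped and the log2 fold change was 0.31 (SE 0.25, edgeR FDR = 0.996). Without it the 3 EOD mice lay above the 3 AL mice, with 0.64 (SE 0.21, 95% interval 0.22 to 1.07, edgeR FDR = 0.9998).

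Groups that did not overlap between diets were found for 3 of 10 members in young mice (Arntl, Cry1 and Nr1d2), against 4.45% of all genes tested, and for 1 of 10 in old mice (Cry1), against 2.59%. The median log2 fold change of the members was 0.26 in young and −0.05 in old mice, against −0.0032 and 0.0026 over all genes tested. In young mice 6 of 10 members had positive values, against 49.2% of all genes, and in old mice 2 of 10, against 50.8%.

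Markers of other cell types were read beside these values, and those named here were chosen after their values had been seen. Among 25 markers in lists of 5 each for neurons, astrocytes, oligodendrocytes, microglia and endothelial cells, 0 passed FDR 0.1 for diet. Averaged over ages, 1 was higher in EOD mice (the astrocyte marker Gja1) and 4 were lower (Gfap, C1qa, Flt1 and Rbfox3) at an unadjusted p under 0.05, against 4.51% of all genes. Gfap, the filament protein of astrocytes, had the smallest p of the 25, with −0.24 (SE 0.06, edgeR FDR = 0.983). It ranged from 152 to 174 CPM in young AL and from 131 to 162 in young EOD mice, and from 381 to 404 in old AL and from 283 to 345 in old EOD mice, so that only the old groups were apart. In young mice the astrocyte markers Aldh1l1 (0.23, SE 0.09) and Gja1 (0.20, SE 0.07) were higher in all EOD than in all AL mice, with edgeR FDR = 0.996 for both. The rest of that list did not share this, with −0.18 (SE 0.08) for Gfap, 0.06 (SE 0.12) for Aqp4 and 0.02 (SE 0.07) for Slc1a3, and overlapping groups. All 5 oligodendrocyte markers had positive values in young EOD against AL mice, and 0 of 5 endothelial and 0 of 5 neuronal markers did, none of them at an unadjusted p under 0.05. The summed levels of each of the 5 lists overlapped between diets at both ages, and no marker was at 0 in every mouse of a group. The part of these markers in the diet values of the clock genes was not tested.

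**Figure D2:**
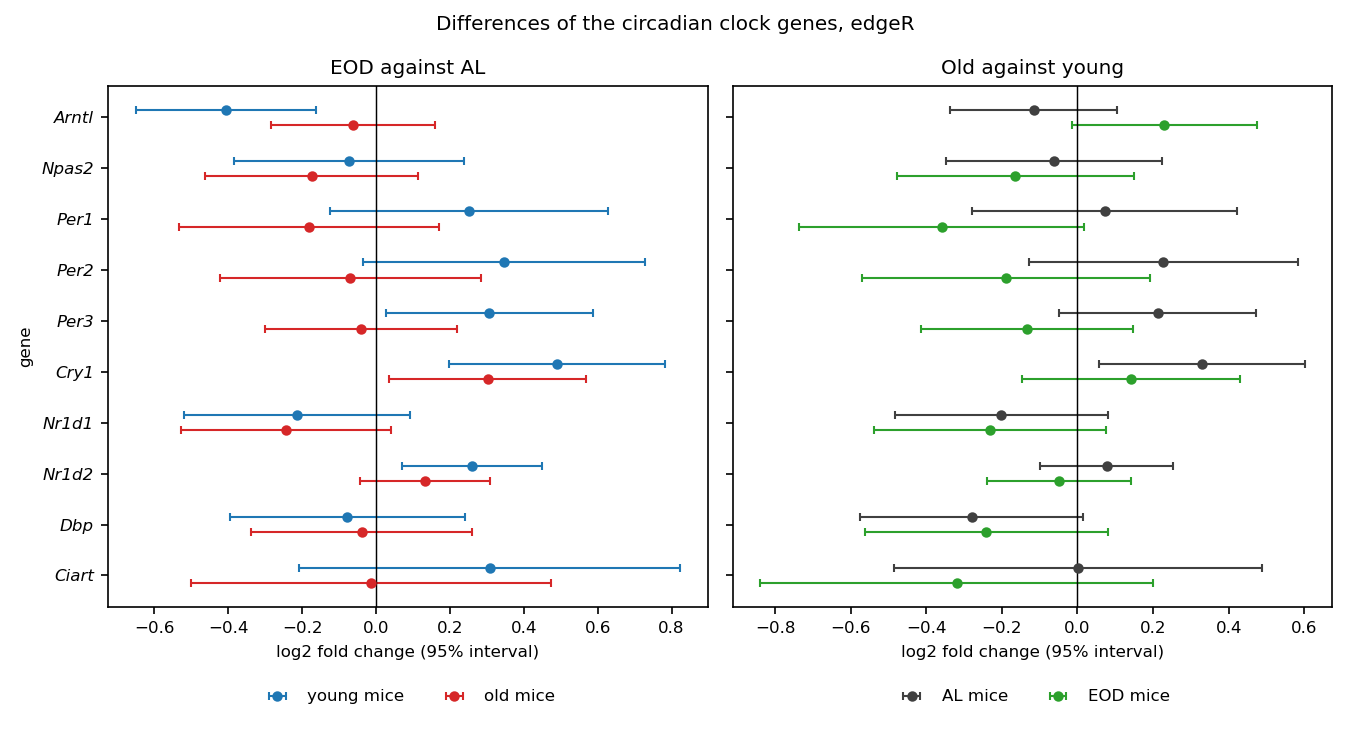
Log2 fold change on the horizontal axis, with 95% intervals from edgeR, for each clock gene; left, EOD against AL in young (blue) and old (red) mice; right, old against young in AL (black) and EOD (green) mice. The intervals of Cry1 lay above 0 for diet at both ages, and those of the Per genes included 0 in old mice.

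With age, 0 of 10 members passed FDR 0.1 averaged over diets, where 2.30% of all genes tested did. The same count of 0 of 10 was found in AL mice, against 1.09% of all genes, and in EOD mice, against 0.29%. At an unadjusted p under 0.05 there were 3 of 10 averaged over diets (Cry1 higher, Nr1d1 and Dbp lower in old mice), against 11.7% of all genes. There was 1 of 10 in AL mice (Cry1), against 9.52%, and 0 of 10 in EOD mice, against 5.74%. DESeq2 gave 0 at FDR 0.1 and 3, 1 and 0 at the unadjusted p, against 1913, 1577 and 906 of its 26260 genes. Without young AL mouse 3, edgeR gave 3 of 10 averaged over diets (Npas2, Cry1 and Nr1d1), against 11.9% of all genes. It then gave 0 of 10 in AL mice, against 7.25%, and 0 of 10 in EOD mice, against 7.94%. For the interaction of age and diet 0 of 10 passed FDR 0.1, as did 0% of all genes. At an unadjusted p under 0.05 there was 1 of 10 (Arntl), against 2.28% of all genes. DESeq2 gave the same counts, against 367 of its 26260 genes at the unadjusted p. With any 1 mouse left out the numbers at the unadjusted p ran from 1 to 3 averaged over diets, from 0 to 3 in AL mice, from 0 to 4 in EOD mice and from 0 to 4 for the interaction. Over all genes they ran from 1558 to 2232, from 1097 to 2115, from 668 to 1246 and from 302 to 591. Without young AL mouse 3, Ciart joined Arntl for the interaction, with −0.66 (SE 0.27, edgeR FDR = 0.9999), against 2.59% of all genes at the unadjusted p.

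Dbp was lower in old than in young mice by log2 −0.26 averaged over diets (SE 0.10, 95% interval −0.48 to −0.04, edgeR FDR = 0.304). Without young AL mouse 3, whose Dbp level of 50.5 CPM was the highest of all mice, it was −0.20 (edgeR FDR = 0.444). Nr1d1 was lower by −0.22 (SE 0.10, edgeR FDR = 0.396), and Cry1 was higher by 0.24 (SE 0.10, edgeR FDR = 0.308). Without young AL mouse 3 the values were −0.24 for Nr1d1 (edgeR FDR = 0.3235) and 0.18 for Cry1 (edgeR FDR = 0.3735). Cry1 thus had a positive value for both age and EOD feeding, and Nr1d1 a negative value for both. Groups of AL mice that did not overlap between ages were found for 0 of 10 members, against 4.56% of all genes tested. In EOD mice they were found for 1 of 10, Arntl, against 9.04%, since the 4 old mice lay above 30 CPM and the 3 young mice below it. Its log2 fold change in EOD mice was 0.23 (SE 0.12, 95% interval −0.02 to 0.47, edgeR FDR = 0.909). Some glial markers changed with age. Averaged over diets, 3 of 5 microglial markers were higher in old mice at FDR 0.1, as were 1 of 5 astrocyte markers (Gfap) and 1 of 5 oligodendrocyte markers (Mbp, a myelin protein). Among the endothelial markers 1 of 5 was lower (Itm2a), and 0 of 5 neuronal markers passed. Gfap was higher by 1.16 (SE 0.06, edgeR FDR = 2.26e-11), whereas 3 of the other 4 astrocyte markers had values below 0, Gja1 among them with −0.15 (SE 0.05, edgeR FDR = 0.1997), and the median of the 5 was −0.02. Mbp was higher by 0.29 (SE 0.07, edgeR FDR = 0.0346), whereas 1 of 5 oligodendrocyte markers was lower at an unadjusted p under 0.05, and the median of the 5 was 0.05. Among the endothelial markers 3 of 5 had positive values, 1 of them at an unadjusted p under 0.05, and the median was 0.07. The summed level of the 5 astrocyte markers was 1385 to 1535 CPM in young AL, 1431 to 1614 in young EOD, 1608 to 1794 in old AL and 1590 to 1733 in old EOD mice. The summed level of the 5 microglial markers was 217 to 229, 212 to 218, 256 to 287 and 240 to 281 CPM in the same order, and none of these 10 markers was at 0 in every mouse. Their part in the age values of the clock genes was not tested.

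Mice of the same group differed in several clock genes by more than in most genes of like level. The SD of log2 CPM around the group means was 0.30 for Per1, 0.29 for Per2, 0.24 for Nr1d1 and 0.24 for Dbp. Among tested genes whose average log2 CPM lay within 0.5 of the member's, these SDs were at the percentiles 98.0, 96.6, 95.8 and 90.3. Npas2 (0.23) and Ciart (0.36) were at 87.2 and 84.4, and without young AL mouse 3 at 67.5 and 64.6. Cry1 (0.20), Per3 (0.19) and Nr1d2 (0.13) were at 68.5, 66.3 and 64.9, and Arntl (0.15) was at 45.7. Without young AL mouse 3 the same number of members, 4, lay above the percentile 90, and Cry1 was at 41.2.

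**Figure D3:**
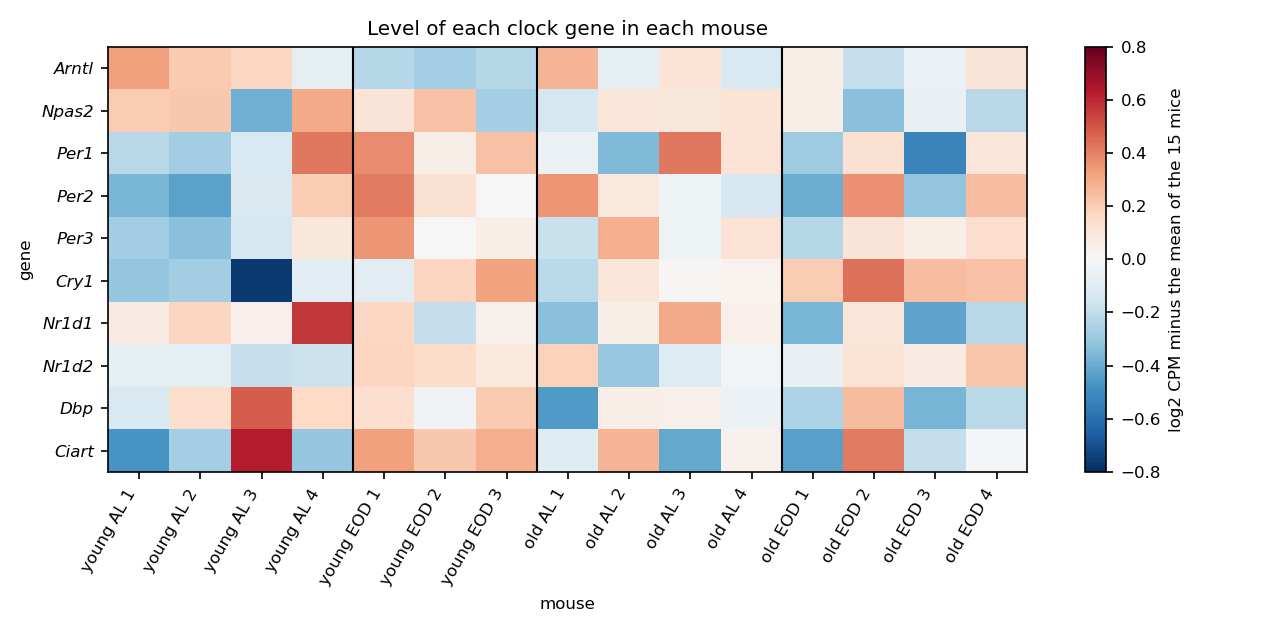
Log2 CPM of each clock gene (rows) in each mouse (columns, black lines between groups) as the difference from the mean of the 15 mice, red for higher and blue for lower. Per1 and Nr1d1 were high together in young AL mouse 4 and old AL mouse 3, and Ciart was highest and Cry1 lowest in young AL mouse 3.

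To see whether clock genes varied together between mice of a group, the deviations of log2 CPM from the group means were correlated for all 45 pairs, with permutation of mice within groups. No pair passed an adjusted p of 0.1 over the 45 pairs, by Pearson's r or by Spearman's rho, and 6 pairs had an unadjusted p under 0.05 by Pearson's r. Per1 and Nr1d1 had the smallest p, with r = 0.76 (permutation p = 0.00836, adjusted 0.298) and rho = 0.65 (permutation p = 0.0235, adjusted 0.265). Without the 2 mice farthest from the median of Per1, r was 0.88. Arntl and Per3 went in opposite directions, with r = −0.66 (permutation p = 0.0242, adjusted 0.298) and rho = −0.64 (permutation p = 0.0314, adjusted 0.271), and r was −0.54 without the 2 farthest mice. Nr1d1 and Dbp had r = 0.62 (permutation p = 0.0359, adjusted 0.298) and rho = 0.67 (permutation p = 0.0192, adjusted 0.265), and r was 0.70 without the 2 farthest mice. With lane means also removed, r was 0.75, −0.51 and 0.65 for these 3 pairs. Npas2 and Ciart had r = −0.71 (permutation p = 0.0222, adjusted 0.298) and rho = −0.66 (permutation p = 0.0210, adjusted 0.265), which rested on 2 mice, since r was −0.18 without them. Without young AL mouse 3, 2 pairs passed, Nr1d1 and Dbp with r = 0.86 (permutation p = 0.001, adjusted 0.045) and Arntl and Cry1 with r = −0.69 (permutation p = 0.00404, adjusted 0.0909).

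**Figure D4:**
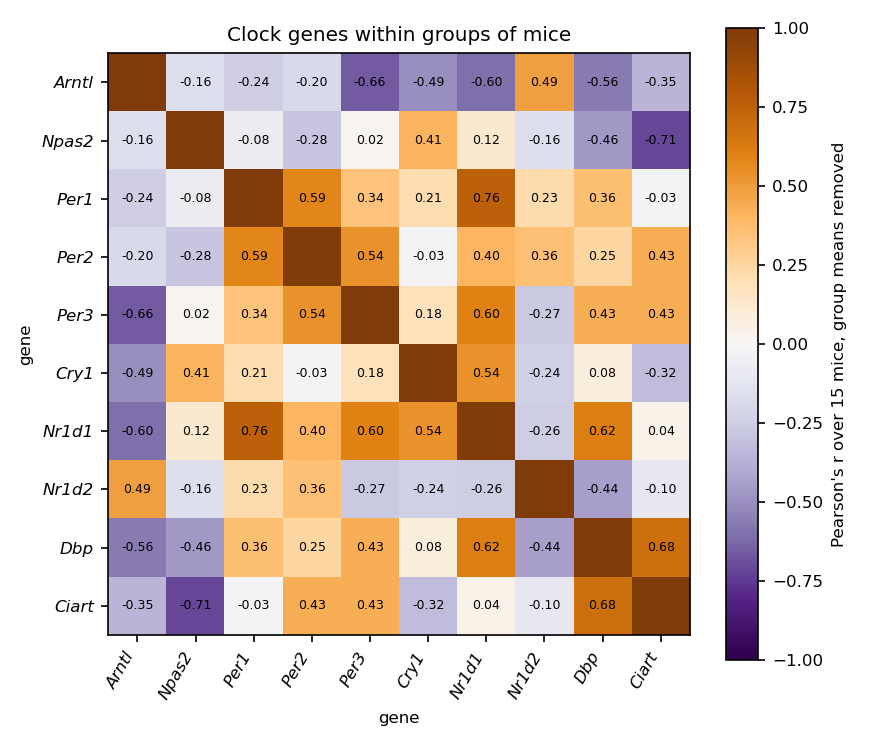
Pearson's r between clock genes over 15 mice after the group means were removed, from −1 (purple) to 1 (brown), for each pair of rows and columns. Per1 with Nr1d1 (0.76) was the highest, Npas2 with Ciart (−0.71) the lowest, and Arntl was negative with 8 of the other 9 members.

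Over the 14 mice without young AL mouse 3, with no group mean removed, the 5 other genes whose log2 CPM followed that of Dbp most closely were Cuedc1 (r = 0.86), Mea1 (0.85), Dpf1 (0.84), Klhdc8b (0.84) and 2310022B05Rik (0.84). Among the members, Nr1d1 was nearest to Dbp (r = 0.79), in position 30 of the genes whose average log2 CPM was 2 or more. For Arntl the 5 genes were Rbm39 (0.80), Hmgcll1 (0.79), Nemf (0.79), Gcdh (0.79) and Nupr1 (0.77). The members farthest from Arntl were Ciart (−0.75), Per3 (−0.72) and Cry1 (−0.64). These are descriptions over libraries that share their depth and quality, and with young AL mouse 3 included r with Dbp was 0.57 for Cuedc1 and 0.13 for 2310022B05Rik.

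The rest of the clock machinery was read from 25 other genes, in lists of 5 activators (Clock and the ROR genes among them), 3 genes around the repressors (Cry2, Timeless and Tipin), 5 E-box repressors and D-box factors, and 12 kinases, ubiquitin ligases and partners. All 25 were tested and 0 passed FDR 0.1 in edgeR or in DESeq2 in any of the 7 comparisons, other than Rora with no filter on low counts (below 0 for age in EOD mice, edgeR FDR = 0.0828). For diet averaged over ages 22 of 25 had positive values, against 50.2% of all genes tested, with a median log2 fold change of 0.06 against 0.0004 over all genes tested, and 2 of 25 had an unadjusted p under 0.05, against 4.51% of all genes. Both belong to the D-box family of Dbp. Tef ranged from 368 to 411 CPM in young AL, from 429 to 447 in young EOD, from 367 to 443 in old AL and from 411 to 507 in old EOD mice. Its log2 fold change averaged over ages was 0.17 (SE 0.05, edgeR FDR = 0.983), and it had the smallest p of the 25 in old mice as well (0.18, SE 0.07, edgeR FDR = 0.9999). Hlf ranged from 240 to 262 CPM in young AL and from 280 to 292 in young EOD mice and had the smallest p in young mice (0.19, SE 0.08, edgeR FDR = 0.996). Dbp itself had a value near 0 for diet, with overlapping groups.

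With age, 14 of 25 had positive values averaged over diets, against 48.5% of all genes tested, and the median was 0.01. At an unadjusted p under 0.05 there were 2 of 25, against 11.7% of all genes. The smallest p belonged to Timeless, a gene of DNA replication related to a clock gene of the fly, which was higher in old mice by 0.42 (SE 0.16, edgeR FDR = 0.285). In AL mice it belonged to Csnk1e, a kinase of the PER proteins, which was at 81.1 to 92.5 CPM in young and 71.9 to 77.03 CPM in old mice (−0.18, SE 0.07, edgeR FDR = 0.362). In EOD mice and for the interaction it belonged to Rora, an activator of Arntl, with −0.33 (SE 0.12, edgeR FDR = 0.728) and −0.31 (SE 0.17, edgeR FDR = 0.9998).

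**Figure D5:**
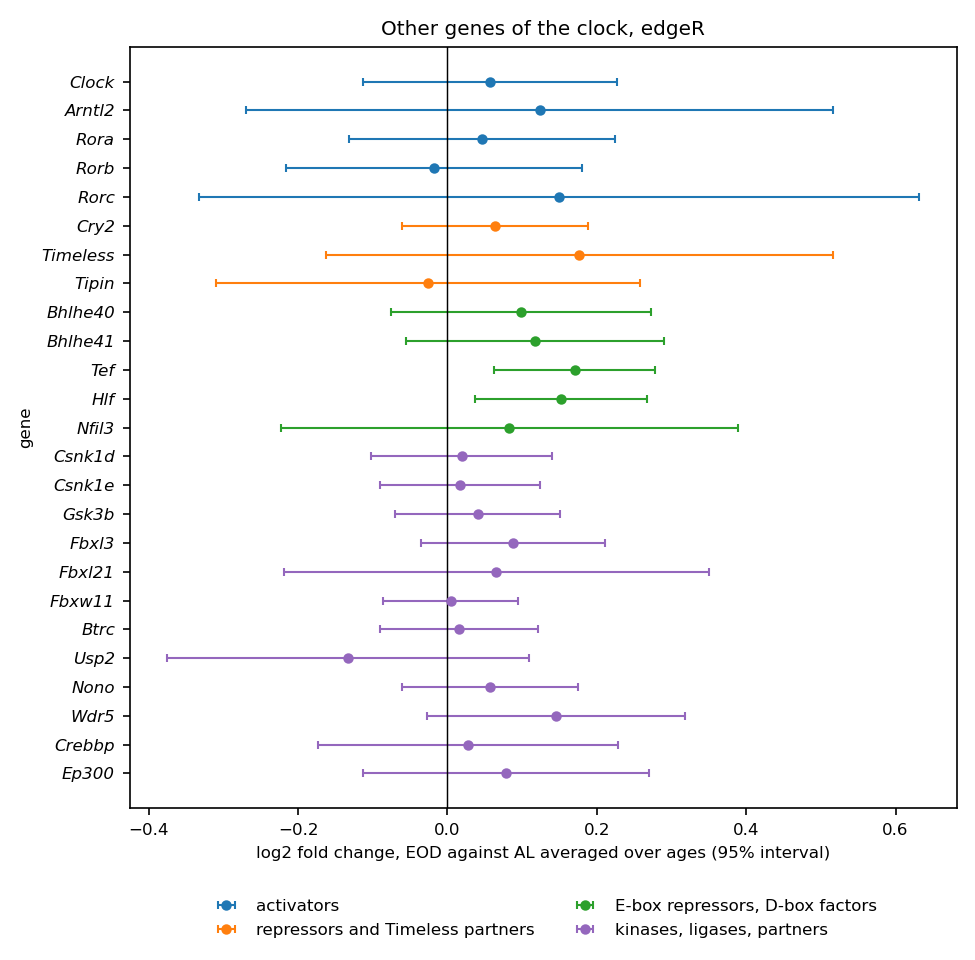
Log2 fold change of EOD against AL averaged over ages on the horizontal axis, with 95% intervals from edgeR, for 25 other genes of the clock coloured by list. The values of 22 genes lay above 0, and the intervals of Tef and Hlf did not include it.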

How the data were processed

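Whole-brain RNA-seq of 15 mice was analysed, with a library for each. The authors trimmed reads for quality and adapters, aligned them to GRCm38 with STAR, ran featureCounts 1.5.0-p1 on the annotation of Ensembl release 79 (reverse-stranded, primary alignments, minimum mapping quality 5) and deposited the raw counts per gene. Groups came from the labels and lanes from the file headers.

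Differences were tested with edgeR 4.0.16 (R 4.3.3; filterByExpr, TMM, quasi-likelihood test, one fit of 4 group means, Benjamini-Hochberg over 15864 genes, FDR under 0.1). Standard errors are the log2 fold change over the square root of F, and 95% intervals use the t distribution. CPM used TMM library sizes and log2 CPM a prior count of 2. Correlations used 100000 permutations. DESeq2 1.42.0, RLE factors, 2 other filters, FDR 0.05, lane, replicate number and each mouse left out were alternatives. The steps were tested on simulated data.

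The members and lists were chosen with earlier results of these data known. Named genes were the 10 members, the other clock gene with the smallest p in each comparison, the glucocorticoid target with the smallest p for diet averaged over ages, and the 5 genes most like Dbp and Arntl. Same-numbered mice of different groups did not deviate together (21 pairs, median r = −0.03), so the numbers were not used as pairs. The study housed its mice in groups, and whether the libraries came from separate litters or cages is not given. The p-values take each mouse as independent and would be too small if mice of a group shared a cage and were alike.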

Additional observations from a re-analysis of the deposited data

Results flagged for a closer look

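In the 3 groups of 4 mice, the lowest and the highest mouse of each clock gene were set against the other 3 with Dixon's test, over 30 combinations of gene and group, where chance marks about 1 in 20. It marked 3 mice. Npas2 was at 25.2 CPM in young AL mouse 3, below the 38.0 to 40.6 CPM of the other young AL mice. Ciart was at 12.7 CPM in the same mouse, above the 5.78 to 6.69 CPM of the others. Npas2 was also at 29.8 CPM in old AL mouse 1, below the 35.0 to 35.6 CPM of the other old AL mice. Young AL mouse 3 also had the lowest Cry1 and the highest Dbp level of all 15 mice. It is the mouse with the fewest genes detected, and the part of its library in these values was not tested.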

How the results depend on the processing

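No clock gene passed FDR 0.1 in any comparison with DESeq2, the lane covariate, RLE size factors, a stricter filter (10 counts or more in each mouse), FDR 0.05, replicate number as a block or any 1 mouse left out, and the block changed no call. The exception was the fit without a filter, which kept all 26269 genes with any count, with 1 call for diet averaged over ages (Cry1), 2 calls for age averaged over diets (Nr1d1, FDR 0.0742, and Dbp, FDR 0.0974) and 1 of the other clock genes for age in EOD mice (Rora). That fit called 65 genes for diet and 653 for age, and the cause was not tested. At the unadjusted p, the number of clock genes moved by over 1.5 times without old AL mouse 1 for diet in old mice (2) and without young EOD mouse 1 or 3, old AL mouse 1 or old EOD mouse 3 for age averaged over diets (down to 1). It moved likewise for age in AL mice without young AL mouse 1, 3 or 4, old AL mouse 1 or 3 or old EOD mouse 2, and for age in EOD mice without young AL mouse 4, young EOD mouse 2, old AL mouse 2 or 3 or old EOD mouse 2 or 4. For the interaction it moved without any mouse other than old AL mouse 2 or 3 or old EOD mouse 3. In the other settings, which kept all mice, these numbers and the count of other clock genes called moved 11 times, the call of Rora included. The number of correlated pairs, 0, was 1 with no group mean removed (Arntl and Per3) and ran from 0 to 2 with 1 mouse left out. It was 2 without young AL mouse 3, 2 without old AL mouse 1 (Per1 with Nr1d1, Per2 with Per3), 1 without old AL mouse 2 (Per1 with Nr1d1) and 1 without old AL mouse 3 (Dbp with Ciart). Leaving out mice other than young AL mouse 3 there was added after the data had been seen.

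Values near 0 changed sign. With the lane covariate they did so for diet in young mice (Npas2, 0.0186), for diet in old mice (Dbp, 0.0193, and Ciart, 0.041), for age averaged over diets (Per3, −0.017) and for age in AL mice (Ciart, −0.051), and with the replicate block for age averaged over diets (Per2, −0.0083). With 1 mouse left out, signs changed in 20 of 70 values of a gene in a comparison. For diet in old mice the values ran from −0.12 to 0.0223 for Arntl, −0.19 to 0.11 for Ciart, −0.19 to 0.0334 for Dbp, −0.21 to 0.0482 for Per2 and −0.11 to 0.0452 for Per3. For age averaged over diets the values ran from −0.25 to 0.0124 for Ciart, −0.0295 to 0.0515 for Nr1d2, −0.0492 to 0.0951 for Per2 and −0.0034 to 0.10 for Per3. For age in AL mice the values ran from −0.11 to 0.34 for Ciart, −0.20 to 0.0178 for Npas2, −0.0097 to 0.15 for Nr1d2 and −0.0584 to 0.27 for Per1. For diet averaged over ages the values ran from −0.13 to 0.0014 for Dbp and −0.0225 to 0.13 for Per1. For diet in young mice the values ran from −0.16 to 0.0423 for Dbp and −0.21 to 0.0601 for Npas2. For the interaction the values ran from −0.11 to 0.11 for Dbp, −0.23 to 0.0375 for Npas2 and −0.17 to 0.0661 for Nr1d1. The values of Cry1 for diet and age kept their sign in every setting. In the replicate block, same-numbered mice of different groups correlated at −0.11 to 0.11. Ciart, with the fewest counts of the members, was the least precise.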

Other observations

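Glucocorticoids vary over the day and with feeding, and 8 of their target genes were read beside the clock genes. None passed FDR 0.1 for diet in edgeR (averaged over ages, in young or in old mice), and the numbers at an unadjusted p under 0.05 were 1, 4 and 1, against 4.51%, 4.14% and 2.58% of all genes tested. Averaged over ages the smallest p belonged to Cdkn1a, an inhibitor of the cell cycle, with −0.33 (SE 0.14, edgeR FDR = 0.983). In young mice 7 of 8 had positive values, against 49.2% of all genes, with a median of 0.38. The 4 with an unadjusted p under 0.05, named after their values were seen, were Sgk1 (0.90, SE 0.29), Zbtb16 (0.54, SE 0.18), Tsc22d3 (0.50, SE 0.18) and Ddit4 (0.49, SE 0.17). In old mice 2 of 8 had positive values, against 50.8% of all genes, with a median of −0.21, and Cdkn1a was the gene with the smallest p. The interaction was negative for all 8, and for the same 4 genes its unadjusted p was under 0.05 (−0.70 to −1.11), against 2.28% of all genes, with an FDR of 0.9998. The summed level of the 8 genes was 331 to 379 CPM in young AL, 457 to 544 in young EOD, 363 to 572 in old AL and 297 to 595 in old EOD mice, so that the young groups did not overlap and the old groups did. No relation of these genes to the clock genes was tested.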
